A study of Homo sapiens with 4 samples.

Results

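The genes described here are 38 members of the glycolysis and hypoxia response program, chosen as a list of gene symbols and matched to the sense-strand entries of each deposited gene table. All 38 had an entry, of 22798 genes counted on their own strand. Nascent RNA was measured by Bru-seq in Karpas 299, an established cell line of anaplastic large cell lymphoma with the ALK fusion, a malignancy of T cells that displays the receptor CD30. In Bru-seq, cells take up bromouridine, and the labelled RNA is pulled down and sequenced, so reads report RNA made during the labelling. The drug experiment set DMSO, the solvent, beside SM-164, a synthetic compound built to imitate Smac and thereby block inhibitor of apoptosis (IAP) proteins. The receptor experiment laid the lymphoma cells on an adherent layer from Chinese hamster ovary (CHO), with or without CD30L, which is the ligand of CD30, at its surface, and recovered them by pipetting. Every treatment lasted 3 h with label present for the final 30 min, and no source used here gives the SM-164 dose. Each of the 4 conditions (DMSO, SM-164, CHO, CD30L+ CHO) has 1 library, so no difference has a replicate check, and the intervals cover counting error only.

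Glycolysis splits glucose into pyruvate in the cytosol, and lactate dehydrogenase can then turn pyruvate into lactate, which leaves the cell through monocarboxylate transporters. The transcription factor HIF, a dimer of an oxygen-labile alpha subunit and the stable beta subunit ARNT, raises many of these genes when oxygen is short. Prolyl hydroxylases of the EGLN family mark the alpha subunit for destruction in normal oxygen, so much of HIF control lies in protein stability, which nascent RNA does not show. Proliferating lymphoma cells commonly keep glycolysis high even in oxygen.

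The library totals behind the deposited values were 31030476 reads with DMSO, 26217590 with SM-164, 45885630 on CHO and 45535364 on CD30L+ CHO cells. The NF-kB target BIRC3 stood at an RPKM (reads per counted kilobase, scaled to the library total) of 6.29 with DMSO and 40.7 with SM-164, and at 5.37 on CHO and 54.8 on CD30L+ CHO cells. Of 10 markers of the lymphoma and of T cells, 7 or 8 per library had an RPKM of at least 0.5, with summed levels of 41.1 to 82.0. Of 11 stromal and epithelial markers none reached 0.5 in any library, their summed level was 0.305 to 0.598, and DCN and KRT19 had no read. Of 9 B cell and myeloid markers 1 or 2 reached 0.5, and MS4A1 had no read. These lists hold human genes and do not show whether RNA of the CHO layer entered the receptor libraries.

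The 38 genes together took 0.400% of all reads with DMSO, 0.379% with SM-164, 0.327% on CHO and 0.296% on CD30L+ CHO cells. Over the 4 libraries 27 members had a mean RPKM of at least 0.5 and are given with their values, while 11 lay below. The 16 glycolytic enzyme genes had a summed RPKM of 182 with DMSO, 140 with SM-164, 68.6 on CHO and 50.2 on CD30L+ CHO cells. The 5 HIF subunit and prolyl hydroxylase genes summed to 12.1, 13.1, 16.4 and 18.9, the opposite order, which HIF1A carried. Without HIF1A the other 4 genes summed to 2.83, 2.76, 3.75 and 3.55. RPKM is per counted length, but that of ALDOA rests on a small part of its gene and may not compare with other members.

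**Figure D1:**
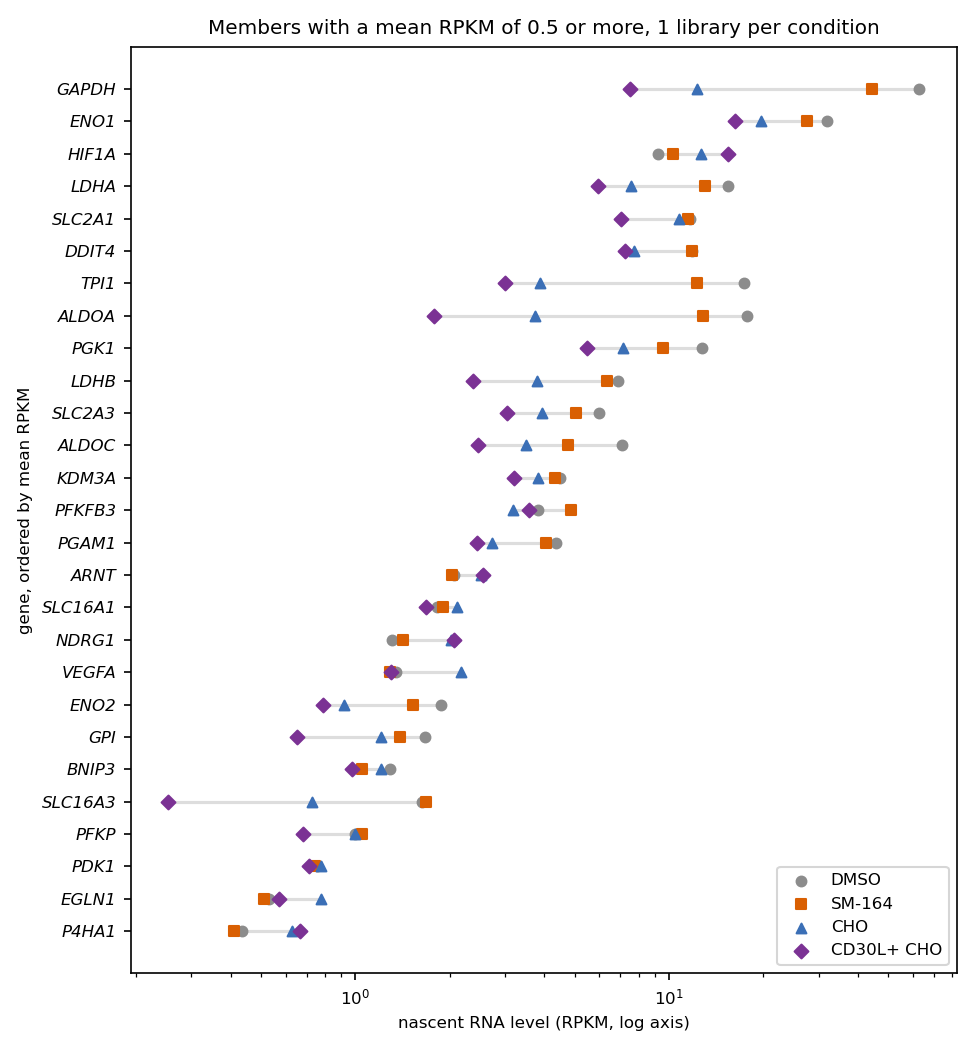
Nascent RNA level (RPKM, log axis) of the 27 members with a mean RPKM of at least 0.5, ordered by that mean, with 1 point per library and a grey line from the lowest to the highest. GAPDH spans 7.52 to 62.9 and ALDOA 1.78 to 17.7, while PDK1 stays between 0.712 and 0.776.

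GAPDH, the enzyme that oxidises glyceraldehyde 3-phosphate, had the highest mean level of the members. It lies on chromosome 12 from 6643657 to 6647536 (hg19, like all gene coordinates here). Its RPKM was 62.9 with DMSO, 44.3 with SM-164, 12.3 on CHO and 7.52 on CD30L+ CHO cells, from 7574, 4506, 2190 and 1328 estimated reads. The DMSO and SM-164 values are the high ones, and the highest level was 8.37 times the lowest. Among all genes GAPDH ranked 34 by RPKM with DMSO and 393 on CD30L+ CHO cells. GAPDH is often used as a reference gene of constant level.

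ALDOA and TPI1 had the same order of libraries as GAPDH. ALDOA, the main aldolase, which cleaves fructose 1,6-bisphosphate, stood at an RPKM of 17.7, 12.8, 3.74 and 1.78 in the order DMSO, SM-164, CHO and CD30L+ CHO, and this order is kept below. Only 18.6% of its length was counted, the 1 member with under 99%. TPI1, which interconverts the triose phosphates, was at 17.3, 12.3, 3.87 and 3.01. ALDOA lies on chromosome 16 from 30064411 to 30081741 and TPI1 on chromosome 12 from 6976584 to 6980110.

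ENO1, the main enolase, was the second most transcribed member and varied less. Its RPKM was 31.9, 27.6, 19.6 and 16.2, and its rank among all genes stayed between 79 and 115. PGK1, the kinase that makes the first ATP of glycolysis, was at 12.7, 9.54, 7.13 and 5.49. PGAM1, a phosphoglycerate mutase, was at 4.37, 4.07, 2.74 and 2.44. All 3 had their highest level with DMSO and their lowest on CD30L+ CHO cells.

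LDHA, the lactate dehydrogenase subunit that favours lactate formation, was at an RPKM of 15.4, 13.02, 7.58 and 5.93. LDHB, the subunit more abundant in oxidative tissue, was at 6.86, 6.32, 3.79 and 2.38. The minor isoforms ALDOC and ENO2 were at 7.10, 4.76, 3.50 and 2.46 and at 1.88, 1.53, 0.917 and 0.789. For these 4 genes both libraries of the drug experiment lay above both of the receptor experiment.

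The early steps were transcribed at low levels. GPI, which isomerises glucose 6-phosphate, stood at an RPKM of 1.67, 1.39, 1.21 and 0.652, and PFKP, the platelet-type phosphofructokinase, at 0.999, 1.05, 0.998 and 0.681. HK1, the housekeeping hexokinase, was at 0.531, 0.49997, 0.439 and 0.356, and HK2, the inducible one, at 0.0430, 0.0371, 0.0564 and 0.0333. The liver-type gene PFKL was at 0.479, 0.419, 0.231 and 0.0715, and the muscle-type gene PFKM at 0.383, 0.415, 0.507 and 0.325. In all 6 genes CD30L+ CHO gave the lowest level.

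PFKFB3, which makes fructose 2,6-bisphosphate, an activator of phosphofructokinase, was at an RPKM of 3.83, 4.86, 3.18 and 3.57. Its highest level came with SM-164, and each treated library lay above its own control. PFKFB4, a relative, was at 0.268, 0.237, 0.368 and 0.207. PFKFB3 lies on chromosome 10 from 6186843 to 6277507.

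Among the transporters SLC2A1, the glucose transporter GLUT1, had an RPKM of 11.6, 11.5, 10.8 and 7.03. The first 3 values lie close together and CD30L+ CHO is low. SLC2A3, the high-affinity transporter GLUT3, was at 5.99, 5.07, 3.94 and 3.05. SLC16A1, the monocarboxylate transporter MCT1, was at 1.82, 1.90, 2.11 and 1.68, and SLC16A3, the lactate exporter MCT4, at 1.63, 1.68, 0.728 and 0.254. MCT1 thus varied 1.25-fold over the libraries and MCT4 6.64-fold.

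HIF1A, the alpha subunit of HIF-1, ran in the other direction from the enzymes. Its RPKM was 9.23 with DMSO, 10.3 with SM-164, 12.6 on CHO and 15.4 on CD30L+ CHO cells, from 15145, 14283, 30674 and 37040 estimated reads. Its rank among all genes was 399, 349, 169 and 123. HIF1A lies on chromosome 14 from 62162119 to 62214977. ARNT, its partner, was at 2.07, 2.03, 2.52 and 2.55, and EPAS1, which encodes HIF-2 alpha, was low at 0.223, 0.211, 0.320 and 0.313.

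Of the prolyl hydroxylase genes, EGLN1 was at an RPKM of 0.530, 0.512, 0.776 and 0.570. EGLN3 was nearly silent in the drug experiment, with 7 reads in each library, and had 159 and 138 reads in the receptor experiment. Its RPKM stayed at or below 0.129, so it passed no expression minimum.

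The HIF targets outside glycolysis had no common order. VEGFA, the angiogenic growth factor gene, was at an RPKM of 1.35, 1.29, 2.17 and 1.302, with CHO alone high. DDIT4, an inhibitor of mTORC1 signalling, was at 11.8, 11.8, 7.71 and 7.27, and KDM3A, a histone demethylase, at 4.49, 4.32, 3.82 and 3.20. NDRG1, a stress-response gene, was at 1.31, 1.41, 2.02 and 2.07, and P4HA1, a collagen prolyl hydroxylase subunit, at 0.436, 0.411, 0.628 and 0.664. The last 2 genes were higher in the receptor experiment, while DDIT4 and KDM3A were higher in the drug experiment.

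BNIP3, a mitophagy receptor, stood at an RPKM of 1.29, 1.05, 1.21 and 0.972, and its relative BNIP3L at 0.563, 0.412, 0.407 and 0.417. PDK1, the kinase that shuts pyruvate dehydrogenase, was at 0.752, 0.744, 0.776 and 0.712, a range of 1.09-fold. CA9, the carbonic anhydrase often used as a hypoxia marker, had 5 to 11 reads per library, ANKRD37 had 3 to 18, and ADM, the adrenomedullin gene, had 10, 9, 0 and 1. The 0 for ADM on CHO cells allows up to 3 reads, an RPM of 0.0654. The counting interval of ADM on CHO cells against DMSO reached up to 0.302 of the DMSO level, and those of both treatment comparisons included 1.

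Promoter sequence was compared for the core of the HIF response element, and 4 members are shown: LDHA and ALDOC, lower in all 3 comparisons, HIF1A, higher in all 3, and SLC2A1, lowest with CD30L. RefSeq promoters (GRCh38.p14) were matched by symbol for 33 of the 38 members. The 250 bases before the start that RefSeq's promoter table gives were searched for ACGTG or GCGTG on both strands, and a palindromic match counts once per strand. For 19 of the 33 that start was the first base of the RefSeq gene, and the RefSeq gene length was within 5% of the deposited one. For the other 14 it may not be the start of the gene as counted: that of GAPDH lies 747 bases inside its RefSeq gene, and the RefSeq genes of ALDOA and PFKFB3 differ in length from the deposited ones, so their sequences are not shown. At least 1 match was present in 22 of 33 member promoters (66.7%), in 14 of the 19 (73.7%) and in 43.1% of all 27305 promoters, and ACGTG itself in 14 of 33 members (42.4%) against 18.7%. Base composition moves with this: the median GC content was 69.6% for the members and 58.0% for all promoters, and its part in the difference was not tested. Bases in capitals mark a match on either strand, and each line runs 5′ to 3′ on the strand of the gene.
LDHA, chr11:18394313-18394562, plus strand: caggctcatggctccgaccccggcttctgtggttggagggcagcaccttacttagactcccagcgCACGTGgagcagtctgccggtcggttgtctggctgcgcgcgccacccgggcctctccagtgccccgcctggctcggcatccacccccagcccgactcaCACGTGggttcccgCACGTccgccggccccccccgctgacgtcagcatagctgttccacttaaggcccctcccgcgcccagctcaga
ALDOC, chr17:28576896-28577145, minus strand: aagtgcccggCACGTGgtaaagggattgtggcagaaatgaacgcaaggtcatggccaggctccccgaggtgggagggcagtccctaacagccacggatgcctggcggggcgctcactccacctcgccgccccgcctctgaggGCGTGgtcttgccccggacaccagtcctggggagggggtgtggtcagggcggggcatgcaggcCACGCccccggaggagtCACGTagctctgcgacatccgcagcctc
HIF1A, chr14:61695263-61695512, plus strand: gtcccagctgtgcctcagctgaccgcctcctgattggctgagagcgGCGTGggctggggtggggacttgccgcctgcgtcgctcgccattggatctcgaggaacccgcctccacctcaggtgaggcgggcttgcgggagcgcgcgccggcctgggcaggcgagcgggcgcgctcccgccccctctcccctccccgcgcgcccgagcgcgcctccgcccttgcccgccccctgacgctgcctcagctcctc
SLC2A1, chr1:42958869-42959118, minus strand: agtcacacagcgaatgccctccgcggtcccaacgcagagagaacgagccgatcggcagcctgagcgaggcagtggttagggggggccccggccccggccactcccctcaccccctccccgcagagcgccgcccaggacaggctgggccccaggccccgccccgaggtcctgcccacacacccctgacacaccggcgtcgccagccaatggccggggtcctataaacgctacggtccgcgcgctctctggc

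LDHA and ALDOC had 5 matches each, counting strands apart, HIF1A had 1 and SLC2A1 had 0. Other members with a matching start also entered all 3 comparisons with log2 ratios below 0. Of these LDHB had 0 matches, ENO2 1, ENO1 2 and BNIP3 6. A match is a run of letters and not a measured site, and its relation to the ratios was not tested.

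The first comparison asked what SM-164 did to these genes within 3 h. No member reached a 2-fold difference, and several glycolytic enzyme genes lay moderately lower while PFKFB3 and HIF1A lay higher. In bulk libraries scaled to their totals, fewer cells that make an RNA and less RNA per cell cannot be told apart. Log2 ratios are log2 of (treated RPKM + 0.25) over (control RPKM + 0.25), and a gene entered with 300 or more counted bases and an RPKM of 0.5 or more, averaged over the pair of libraries. Of 27 members that entered, 0 were 2-fold higher, against 0.19% of all 7881 genes, and 0 were 2-fold lower, against 0.0634%. At 1.5-fold the members again gave 0 in each direction, against 0.787% of all genes higher and 1.1% lower. The median log2 ratio was -0.06 for the members and -0.04 for all genes.

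ALDOC was lowest, at 0.671 of its DMSO level (95% counting interval 0.599 to 0.752). GAPDH was at 0.704 (0.679 to 0.731), TPI1 at 0.708 (0.657 to 0.762), ALDOA at 0.724 (0.671 to 0.781) and PGK1 at 0.749 (0.724 to 0.774). Of 13 glycolytic enzyme genes that entered, 12 had a log2 ratio below 0, with a median of -0.24, and 1 of the 12, PGAM1, turned positive with the length trend subtracted. Of all genes 63.3% were below 0, and of those with under 10 kb counted 78.1%. Subtracting the running median of genes with like counted bases moved the log2 ratios of ALDOC, GAPDH, TPI1 and ALDOA. They went from -0.55, -0.50, -0.49 and -0.46 to -0.36, -0.32, -0.30 and -0.24. LDHA at 0.846 (0.814 to 0.878) and ENO1 at 0.865 (0.846 to 0.885) differed less than the 5 genes above.

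PFKFB3 was the highest member, 1.27-fold above DMSO (1.24 to 1.303). HIF1A followed at 1.12-fold (1.09 to 1.14) and NDRG1 at 1.08-fold (1.02 to 1.14), and no other member had a counting interval wholly above 1. DDIT4 at 1.00-fold (0.901 to 1.11), PDK1 at 0.989 (0.902 to 1.09) and SLC2A1 at 0.989 (0.964 to 1.02) had intervals that include 1. The 4 transporter genes had log2 ratios from -0.23 for SLC2A3 to 0.05 for SLC16A1.

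The second comparison asked what CD30L added to contact with CHO cells. Most of the enzymes and transporters lay lower on CD30L+ CHO cells, while HIF1A and PFKFB3 lay higher. With the pseudocount no member of the 26 that entered reached 2-fold: 0 were higher, against 0.979% of 7661 genes, and 0 lower, against 0.731%. ALDOA passed 2-fold by reads and with a pseudocount of 0.1. At 1.5-fold 0 members were higher, against 2.62% of all genes, and 6 were lower (23.1%), against 4.99%. The 6 were ALDOA, GPI, GAPDH, VEGFA, LDHB and SLC2A1. The median log2 ratio was -0.31 for the members and -0.12 for all genes, and TMM scaling, which sets libraries by their bulk of genes, shifted the latter by 0.17.

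ALDOA stood at 0.476 of its CHO level (0.409 to 0.552), a log2 ratio of -0.97. GPI was at 0.539 (0.501 to 0.580) and GAPDH at 0.611 (0.570 to 0.654). All 12 glycolytic enzyme genes that entered had a log2 ratio below 0, with a median of -0.39, but PGAM1 turned positive under TMM scaling, and PGAM1 and ENO2 did so with the length trend subtracted. Of all genes 72.0% were below 0, and of those with under 10 kb counted 81.7%. PGK1 at 0.770 (0.744 to 0.797), LDHA at 0.782 (0.749 to 0.816) and ENO1 at 0.827 (0.808 to 0.846) lay nearer to 1. Beyond their counting intervals, 24 of the 26 log2 ratios moved under TMM scaling and 20 with the length trend subtracted. PGK1 moved from -0.36 to -0.17 under TMM, LDHA from -0.34 to -0.14 and ENO1 from -0.27 to -0.07.

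SLC2A1 was at 0.651 of its CHO level (0.636 to 0.667), and SLC2A3 at 0.775 (0.734 to 0.818). SLC16A3 was at 0.348 (0.282 to 0.426), from 371 and 128 estimated reads, and PFKL at 0.309 (0.241 to 0.393), from 290 and 89.0 reads. These were the largest folds of the members, but the mean RPKM of both genes was below 0.5 and neither entered the count. VEGFA was at 0.600 (0.553 to 0.650), with its CD30L+ CHO level of 1.302 close to the 1.35 and 1.29 of the drug experiment.

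HIF1A was 1.22-fold higher on CD30L+ CHO cells (1.20 to 1.24) and PFKFB3 1.12-fold (1.10 to 1.15). P4HA1 had an interval just above 1, at 1.06-fold (1.00 to 1.12), and these 3 were the only members with one. ARNT at 1.01-fold (0.980 to 1.04) and NDRG1 at 1.03-fold (0.988 to 1.06) had intervals that include 1. EGLN1, which opposes HIF alpha, was at 0.734 (0.688 to 0.783). Its CD30L+ CHO level of 0.570 was close to the 0.530 and 0.512 of the drug experiment.

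**Figure D2:**
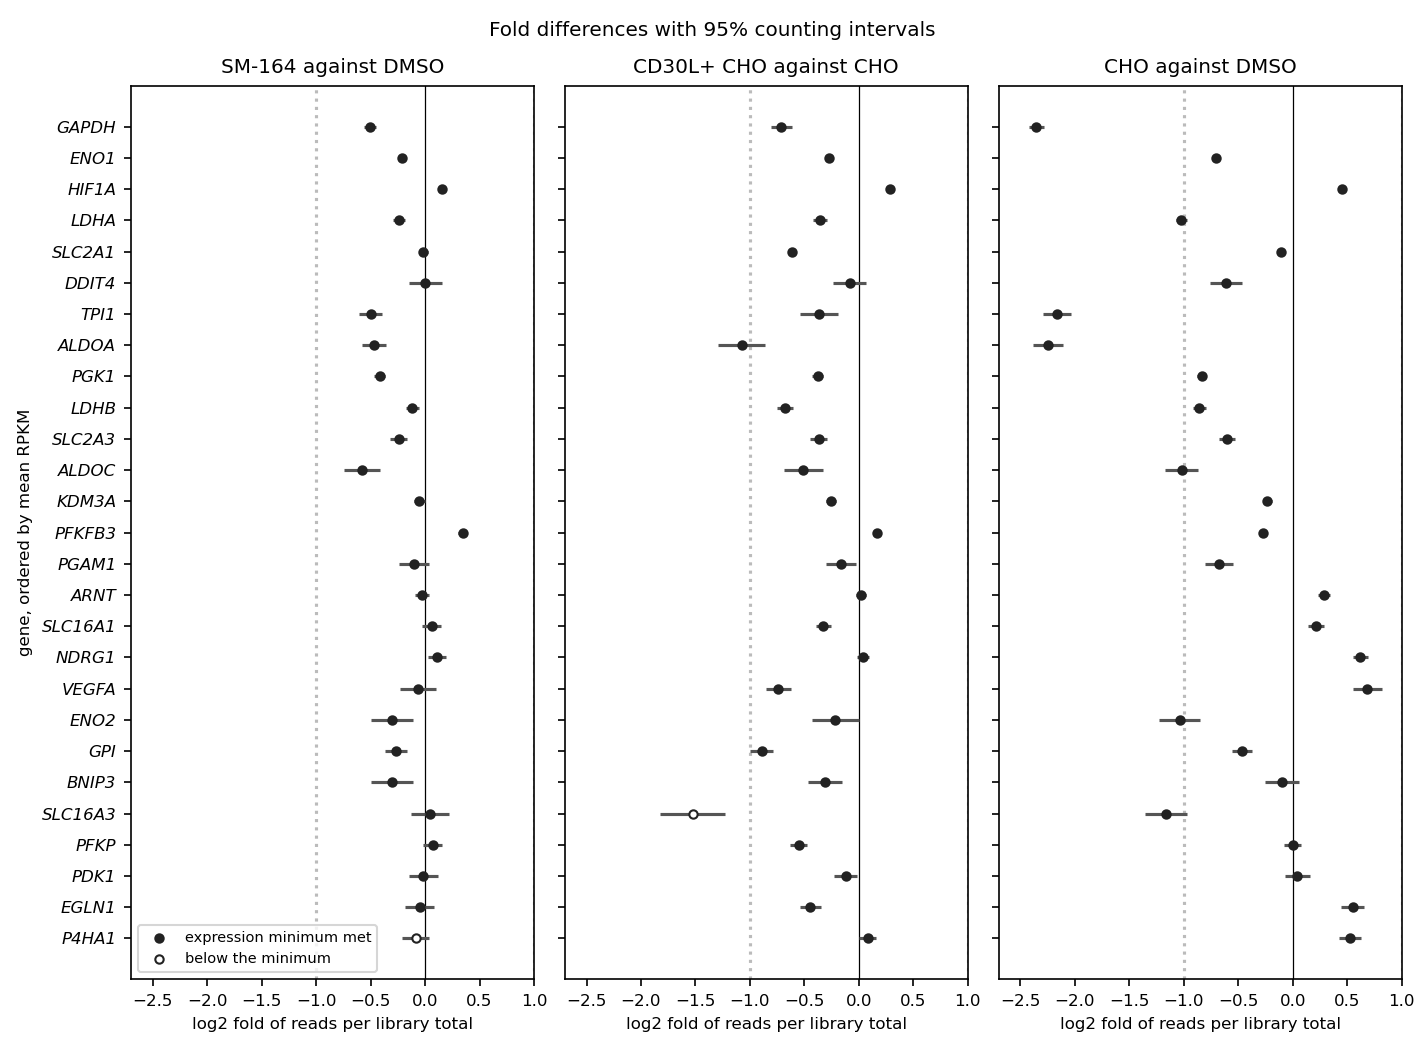
Log2 fold of reads per library total for the same 27 members in 3 comparisons, with bars for 95% counting intervals, dotted lines at 2-fold and open points for genes below the expression minimum. GAPDH, ALDOA and TPI1 lie left of 0 in each panel, and HIF1A lies right of 0 in each.

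In the 25 members that entered both treatment comparisons, 18 had a log2 ratio below 0 in both and 3 above 0 in both at the deposited scaling. Of all 7210 genes that entered both, 50.6% were below 0 in both and 16.5% above. Of the 1775 with under 10 kb counted, 66.3% were below and 7.44% above. The 3 members above 0 in both were HIF1A, PFKFB3 and NDRG1. The 2 comparisons share no library. The log2 ratio with CD30L was lower than that with SM-164 by most for SLC2A1 (-0.60 against -0.02), VEGFA (-0.64 against -0.06), ALDOA (-0.97 against -0.46) and LDHB (-0.62 against -0.11). TPI1 had the largest difference the other way, at -0.34 with CD30L and -0.49 with SM-164. These differences between the treatments were not tested, since each condition has 1 library.

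The 2 controls were compared to show how far apart the experiments lay, since co-culture, and the experiment itself, cannot be told apart here. Whether RNA of the CHO layer added to the reads of the receptor libraries was not tested. GAPDH, ALDOA and TPI1 were lower on CHO cells by more, on the log2 scale of RPKM + 0.25, than any member differed in the treatment comparisons. Of 27 members that entered, 0 were 2-fold higher on CHO cells, against 0.879% of 8081 genes, and 3 were 2-fold lower (11.1%), against 4.52%. At 1.5-fold 1 member was higher, VEGFA, against 7.07% of all genes, and 12 were lower (44.4%), against 10.7%. The median log2 ratio was -0.40 for the members and 0.06 for all genes. This comparison shares its control libraries with the other 2.

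GAPDH on CHO cells was at 0.196 of its DMSO level (0.186 to 0.205), ALDOA at 0.211 (0.191 to 0.232) and TPI1 at 0.223 (0.204 to 0.245). LDHA at 0.493 (0.475 to 0.511), ALDOC at 0.494 (0.444 to 0.549), ENO2 at 0.487 (0.427 to 0.556) and SLC16A3 at 0.446 (0.391 to 0.510) passed 2-fold by reads but not with the pseudocount. ENO1 was at 0.615 (0.602 to 0.628). All 12 glycolytic enzyme genes that entered were below 0 on the log2 scale, from -2.33 for GAPDH to just under 0 for PFKP. Of all genes 43.8% were below 0, and of those with under 10 kb counted 66.9%.

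HIF1A was 1.37-fold higher on CHO cells (1.34 to 1.397), ARNT 1.22-fold (1.17 to 1.27) and EGLN1 1.46-fold (1.36 to 1.58). VEGFA was 1.61-fold higher (1.47 to 1.76), NDRG1 1.54-fold (1.47 to 1.61) and P4HA1 1.44-fold (1.34 to 1.54). Of all genes 56.2% were above 0 in this comparison, and of those with 40 kb or more counted only 35.6% were below 0. With the length trend subtracted, the log2 ratios were 0.29 for HIF1A, 0.14 for ARNT and 0.25 for EGLN1. They were 0.45 for VEGFA, 0.39 for NDRG1 and 0.25 for P4HA1. EGLN3 was 15.4-fold higher by reads (7.28 to 38.8), below the expression minimum. Of the glucose transporters, SLC2A1 was at 0.927 of DMSO (0.906 to 0.949) and SLC2A3 at 0.658 (0.626 to 0.691). The lymphoma and T cell marker list also lay lower in this comparison. Its median log2 ratio was -0.81 over 8 tested genes, against 0.06 for all genes. At 1.5-fold 6 of the 8 were lower, against 10.7% of all genes, while NPM1 was at -0.12 and TIA1 at 0.10. The part of this marker list in the difference was not tested.

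Gene length moved with all of these ratios. Across the members that entered, Spearman's rho between the log2 ratio and counted bases was 0.64 with SM-164, 0.43 with CD30L and 0.74 between the controls, over 27, 26 and 27 genes of the same 2 libraries each. Across all genes it was 0.44, 0.29 and 0.25. The median of the shortest decile of all genes was -0.27 with SM-164, -0.27 with CD30L and -0.54 between the controls. GAPDH, with 3880 counted bases, is short, and the running median of genes of its length was -0.19, -0.25 and -0.33 against its own ratios of -0.50, -0.69 and -2.33.

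By counted bases, the 7 members under 10 kb had median log2 ratios of -0.46, -0.34 and -0.97 in the 3 comparisons. All such genes had -0.18, -0.22 and -0.24. The 7 members include ALDOA, with 3223 bases counted of a gene of 17331. DDIT4, the shortest of them at 2121 bases, had ratios of 0.00, -0.08 and -0.60. Members of 40 kb or more, 10 in each comparison, had medians of 0.02, -0.04 and 0.22, against 0.01, -0.06 and 0.10 for all such genes. Between these lengths the 10, 9 and 10 members had medians of -0.22, -0.36 and -0.63, against -0.06, -0.13 and 0.14. HIF1A stood above the running median of its length by 0.16, 0.37 and 0.29. What length stands for in these libraries was not tested.

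**Figure D3:**
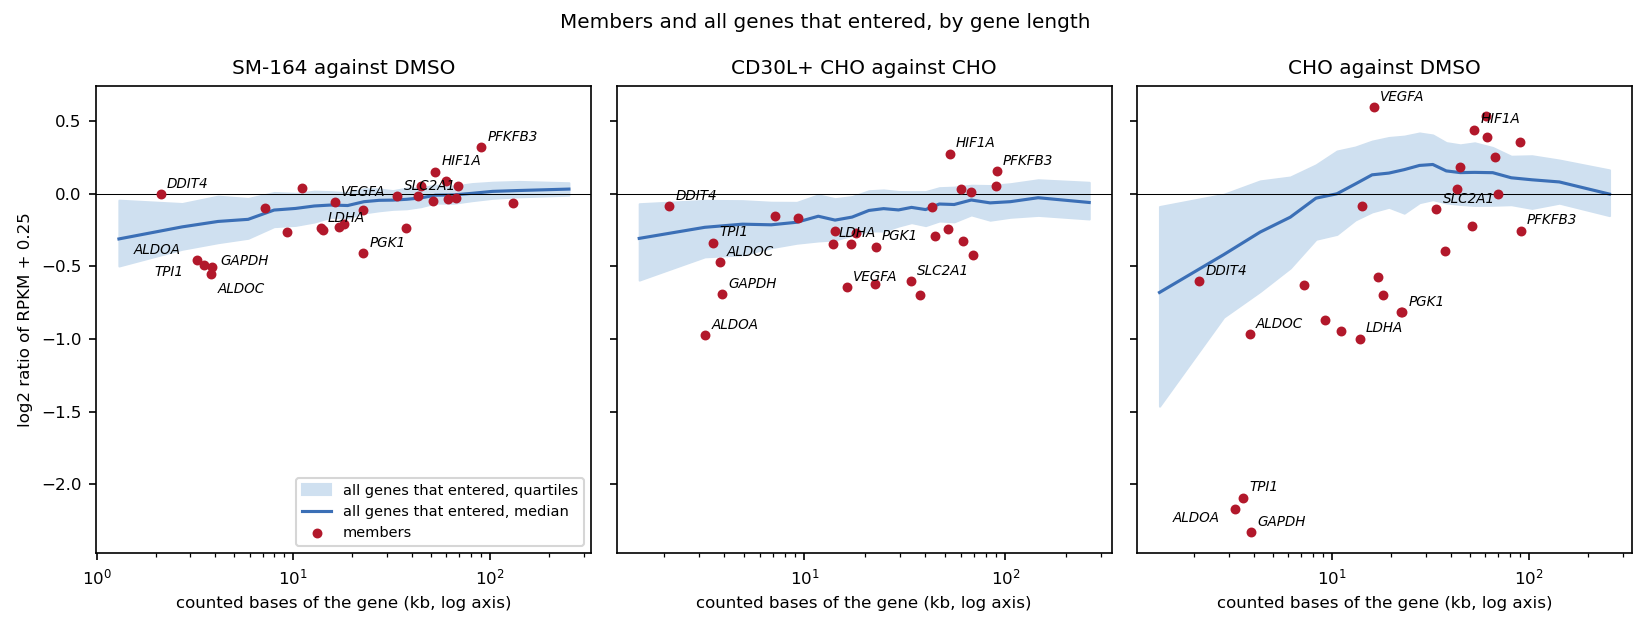
Log2 ratio of RPKM + 0.25 against counted bases (kb, log axis) in the 3 comparisons, with members as red points and all genes that entered as the median and quartile band of 20 length bins. In the comparison of the controls GAPDH, ALDOA and TPI1 lie between -2.33 and -2.09, under the band of genes with like counted bases.

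Isoform use differed between the libraries in some families and varied little in others. ALDOA made up 71.4% of summed aldolase RPKM with DMSO and 72.9% with SM-164, but 51.6% on CHO and 42.0% on CD30L+ CHO cells, where the RPKM of ALDOC was the higher. Since ALDOA was counted over 18.6% of its length, the level of these shares is uncertain. MCT4 (SLC16A3) made up 47.3%, 47.0%, 25.7% and 13.1% of the summed RPKM of SLC16A1 and SLC16A3. SLC16A7, a relative outside this sum, was at an RPKM of 1.10, 1.08, 0.558 and 0.383. PFKL took 25.7%, 22.3%, 13.3% and 6.64% of phosphofructokinase, and PFKP was the leading gene in each library at 53.7% to 63.2%. The shares of ALDOA, SLC16A3 and PFKL were higher in both libraries of the drug experiment than in those of the receptor experiment, and lowest on CD30L+ CHO cells.

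LDHA kept 66.7% to 71.4% of lactate dehydrogenase in the 4 libraries, ENO1 94.4% to 95.5% of enolase, and SLC2A1 66.0% to 73.2% of GLUT1 and GLUT3. HIF1A made up 97.5% to 98.0% of the 2 HIF alpha genes. HK1 held 88.6% to 93.1% of the hexokinase pair. EGLN3 made up 1.56% of the pair of EGLN1 and EGLN3 with DMSO, from 7 reads, and 14.3% on CHO cells. EGLN2, a relative outside this pair, was at an RPKM of 1.11, 1.11, 1.35 and 0.928.

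**Figure D4:**
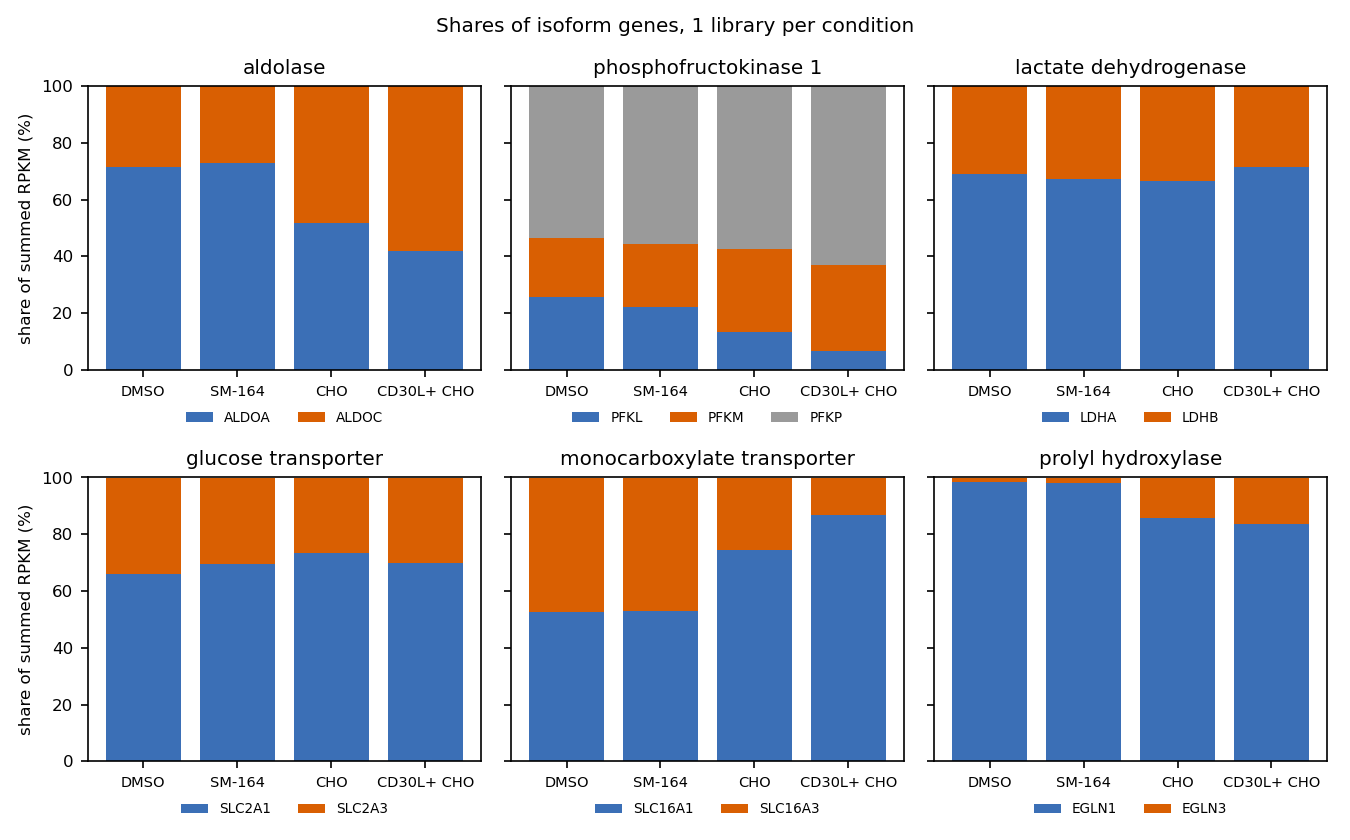
Share of each isoform gene in the summed RPKM (%) of 6 families, counting members of the 38 only, 1 bar per library. ALDOA goes from 71.4% of aldolase with DMSO to 42.0% on CD30L+ CHO cells. SLC16A3 goes from 47.3% to 13.1% of SLC16A1 and SLC16A3 together, while LDHA stays between 66.7% and 71.4%.

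Related pathway genes outside the 38 were read from 6 lists. Of all genes, 0.787% were 1.5-fold higher and 1.1% lower with SM-164, and 2.62% and 4.99% with CD30L. Between the controls the shares were 7.07% and 10.7%, and the all-gene medians were -0.04, -0.12 and 0.06. Of other glycolytic enzyme genes 4 of 17 entered each comparison, and none differed by 1.5-fold with SM-164 or CD30L. The leading gene was PKM2, which encodes pyruvate kinase of the final step, at an RPKM of 8.004 with DMSO, 8.16 with SM-164, 5.07 on CHO and 6.78 on CD30L+ CHO cells. On CHO cells it was at 0.633 of DMSO (0.613 to 0.653), and with CD30L its log2 ratio was 0.40, on the other side of 0 from the 12 enzyme members. Of pyruvate entry genes 11 of 13 entered, with medians of -0.12, -0.20 and -0.11. The phosphatase gene PDP2, which reactivates pyruvate dehydrogenase, was at 0.533 with CD30L (0.464 to 0.611).

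In the pentose phosphate list 6 of 8 genes entered, with medians of -0.08, -0.22 and -0.10. TKT, the transketolase gene, was at 0.464 of its CHO level with CD30L (0.431 to 0.5004), the 1 gene of this list at 1.5-fold there, and none was with SM-164. Of 16 regulators of HIF 14 entered, with medians of 0.01, -0.05 and 0.07. At 1.5-fold 0 differed with SM-164 and 1 was lower with CD30L, against 4.99% of all genes lower. Between the controls 1 was higher and 3 lower, against 7.07% and 10.7% of all genes. The 1 with CD30L was TCEB2, an elongin subunit of the VHL complex, at 0.549 (0.467 to 0.645). CITED2, which competes with HIF for its coactivator, was at 0.454 on CHO cells against DMSO (0.409 to 0.503).

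Other genes raised by hypoxia numbered 29, of which 16 or 17 entered, with medians of -0.08, -0.14 and 0.18. At 1.5-fold 1 was higher with SM-164, 2 higher and 1 lower with CD30L, and 2 higher and 4 lower between the controls. The all-gene shares were 0.787% higher with SM-164, 2.62% higher and 4.99% lower with CD30L, and 7.07% and 10.7% between the controls. BHLHE40, a circadian and hypoxia-responsive repressor, was 2.60-fold higher with CD30L (2.47 to 2.74), and CXCR4, a chemokine receptor, was 1.72-fold higher with SM-164 (1.54 to 1.91) and 2.03-fold with CD30L (1.81 to 2.28). HMOX1, heme oxygenase 1, was at 0.508 with CD30L (0.440 to 0.586). MIF, a short cytokine gene of 845 counted bases, was at 0.0485 on CHO cells against DMSO (0.0283 to 0.0782). BHLHE40 and CXCR4 thus differed in the direction opposite to VEGFA with CD30L, but both were lower on CHO cells than with DMSO. CXCR4 was at an RPKM of 5.09 with DMSO, 2.58 on CHO and 5.23 on CD30L+ CHO cells. Its CD30L+ CHO level was thus close to that with DMSO. In the same order BHLHE40 was at 11.98, 7.64 and 19.9. HMOX1 was at 0.395, 0.956 and 0.486, with CHO the highest of these.

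In the list of glucose uptake partners and sensors 3 of 14 genes entered with CD30L and 5 in each of the other comparisons. TXNIP, a glucose-induced inhibitor of glucose uptake, was at an RPKM of 5.04 with DMSO, 12.9 on CHO and 6.47 on CD30L+ CHO cells. It was 2.56-fold higher on CHO cells than with DMSO (2.35 to 2.80), and 0.501 of that level with CD30L (0.468 to 0.537). BSG, which encodes the chaperone of MCT1 and MCT4, was at 0.361 with CD30L (0.300 to 0.433) and at 0.299 on CHO cells against DMSO (0.267 to 0.335). Both BSG and SLC16A3 were therefore lower in these 2 comparisons.

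Reads on the opposite strand were few. Over the 37 members with an antisense entry they made up 0.631%, 0.651%, 1.19% and 1.08% of the reads of both strands. HK2 had 60.0, 59.6, 137 and 102 antisense reads beside 81.0, 59.0, 157 and 92.0 sense reads. PFKM had 86.5, 57.6, 393 and 292, EGLN1 132, 76.0, 353 and 313, and HIF1A 96.0, 83.0, 238 and 150. These 4 genes had more antisense reads in the receptor experiment, but its libraries were also deeper and these reads are not scaled to library totals. No annotated gene of the deposited data overlaps these 4 genes on the other strand. ALDOA has no antisense entry.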

How the data were processed

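The authors deposited 1 gene table per library. The tools named are TopHat 1.4.1, Bowtie 0.12.8, bedtools 2.16.2 and CASAVA 1.8.2, with build hg19, per the submitters' processing notes, and no source used here names the gene annotation. The deposited estimated counts cover exons and introns together, and 60.6% to 70.8% of non-zero values lay within 0.001 of a whole number. The deposited signal is the count per counted base, and the deposited RPKM scales it by 1 total per file. Members and lists were chosen with earlier results of these data known. Sense entries were used, and a repeated symbol kept the entry with most counted bases (186 dropped of 22984).

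With 1 library per condition no test across genes and no p-value was computed. Calls rest on the log2 ratio of RPKM with a pseudocount of 0.25, 300 or more counted bases and an RPKM of 0.5 or more averaged over the pair. Folds are ratios of counts rounded to whole reads over library totals, with exact conditional (Clopper-Pearson) 95% intervals. Without molecular identifiers, PCR reads are not independent molecules, so intervals cover counting error only. Genes with processed pseudogenes, such as GAPDH, LDHA, PGK1, TPI1 and ENO1, may have lost or shared reads. In each list, up to 4 genes at 1.5-fold and the highest expressed gene could be named. In the list of glycolytic enzymes, pyruvate kinase was found under its older symbol PKM2. The procedure was tested on simulated data with large known changes and counting error only. That run does not bear on smaller differences, on spread between libraries or on the length trend. The tools were edgeR 4.0.16 in R 4.3.3 for TMM, and scipy 1.17.1, pandas 2.3.3, numpy 2.4.6 and matplotlib 3.10.9 in Python 3.11.15. Alternatives were pseudocounts of 0.1 and 1, no minimum, a mean RPKM of 1, at least 1000 counted bases, a 1.5-fold threshold, a 2-fold rule with an interval excluding 1, the all-gene median set to 0, TMM, and subtraction of the running median over 301 genes ordered by counted bases.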

Additional observations from a re-analysis of the deposited data

How the results depend on the processing

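No paired analysis was possible because each condition has 1 library. With SM-164 the counts of members at 2-fold stayed at 0 under all 10 alternatives, and the median log2 ratio stayed below 0 under the 8 that give one, between -0.11 and -0.02. With CD30L the count of lower members became 1 with a pseudocount of 0.1 (ALDOA) and 6 at 1.5-fold. Its median of -0.31 moved to -0.19 with the all-gene median set to 0, to -0.13 under TMM scaling and to -0.15 with the length trend subtracted. Between the controls the count of 3 lower members became 5 with a pseudocount of 0.1, 6 with the median set to 0, 6 under TMM scaling and 12 at 1.5-fold, and that of higher members 1 at 1.5-fold. With the length trend subtracted LDHA joined the 3 lower members, at -1.12. GAPDH, ALDOA and TPI1 were among the lower members under each of the 10 alternatives. The median of -0.40 moved to -0.27 with a pseudocount of 1, -0.20 without an expression minimum, -0.60 at a mean RPKM of 1 and -0.49 under TMM scaling, with the cause not tested. Single members changed sign under the 3 changes of scale alone: 3 to 4 of 27 with SM-164, 2 to 3 of 26 with CD30L and 1 of 27 between the controls. They were PDK1, SLC2A1, EGLN1, ARNT, PGAM1 and VEGFA with SM-164, PDK1, DDIT4, PGAM1 and ENO2 with CD30L, and PDK1 between the controls. HIF1A, PFKFB3, GAPDH, ALDOA and TPI1 kept their direction throughout. Depth limits ADM, CA9 and ANKRD37, with at most 18 reads per library.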
